A study of Mus musculus with 24 samples.

Results

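The response to interleukin-4 (IL-4) of bone marrow-derived macrophages from OGT knockout (KO) mice was measured by RNA sequencing of total RNA. The comparison takes the 8 KO libraries that were either given IL-4 (4 libraries) or left unstimulated (M0, 4 libraries), of 24 libraries in all. All come from C57BL/6J mice aged 12 weeks. IL-4 was given at 10 ng/ml for 12 hours, and M0 cells received no stimulus. Wild-type (WT) macrophages of the same strain and age, 4 M0 and 4 IL-4 libraries, serve as the point of comparison, and the other 8 libraries (LPS-treated) enter only the estimate of the spread. The sources used here do not give how Ogt was deleted, in which cells, or which part of the gene was removed. KO libraries carry the numbers 5 to 8 and WT libraries the numbers 1 to 4. Nothing in the labels ties a library to its own animal or culture, so the p-values measure only the spread between these libraries, which may be technical.

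IL-4 is a type 2 cytokine. It binds a receptor made of IL-4Rα and either the common γ chain or IL-13Rα1, Janus kinases phosphorylate the receptor, and the transcription factor STAT6 then enters the nucleus and binds paired TTC and GAA half-sites. In mouse macrophages the pathway is known for inducing arginase-1 (Arg1), the resistin-like protein RELMα (Retnla), the chitinase-like protein Ym1 (Chil3), the mannose receptor (Mrc1) and type 2 chemokines, and for switching on feedback inhibitors of the SOCS family. OGT is the enzyme that attaches N-acetylglucosamine to serines and threonines of nuclear and cytosolic proteins, and OGA (Mgea5 in the files) removes it.

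To show what the STAT6-type motif looks like ahead of genes that IL-4 raised here, RefSeq promoters (GRCm38.p6, 250 bases before to 50 bases after a gene's start) were searched for TTC followed, after any 4 bases, by GAA, which reads the same on both strands. Of 21 named genes called higher in KO, 16 had a promoter in the table and 4 held a match: Retnla, Ccl17, Pdcd1lg2 and Tmem26. The stretches around the matches are printed 5′ to 3′ on the gene's strand, which is the plus strand for all 4, with the motif in capitals. They lie at chr16:48842424-48842513 for Retnla, chr8:94810259-94810348 for Ccl17, chr19:29410797-29410886 for Pdcd1lg2 and chr10:68723496-68723745 for Tmem26, and each ends before the RefSeq start its promoter belongs to. For Ccl17 that start lies inside the span of the gene (chr8:94809380-94812038).
Retnla: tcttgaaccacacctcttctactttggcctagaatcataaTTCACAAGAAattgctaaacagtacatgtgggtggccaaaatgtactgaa
Ccl17: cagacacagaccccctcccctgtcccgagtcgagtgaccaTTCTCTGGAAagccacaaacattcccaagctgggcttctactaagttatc
Pdcd1lg2: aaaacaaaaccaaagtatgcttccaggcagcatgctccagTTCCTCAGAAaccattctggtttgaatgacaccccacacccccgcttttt
Tmem26: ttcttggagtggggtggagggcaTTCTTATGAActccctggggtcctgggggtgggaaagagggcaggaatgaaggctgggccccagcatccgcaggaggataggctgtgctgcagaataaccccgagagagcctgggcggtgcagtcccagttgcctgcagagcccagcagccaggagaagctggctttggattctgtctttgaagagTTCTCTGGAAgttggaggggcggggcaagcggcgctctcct
The motif begins 145 bases before the start in Retnla, 154 in Ccl17 and 82 in Pdcd1lg2. Tmem26 holds 2 matches, 227 and 41 bases before its start, and the nearer carries the same letters as the match in Ccl17.

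Over all tested genes with a promoter in that table, 6.69% (737 of 11021) held the motif in at least 1 promoter. The share was 11.4% (44 of 387) among genes called at least 2-fold higher in KO after IL-4, and 7.03% (37 of 526) among genes called at least 2-fold lower. These shares describe 300-base windows, and a match is not a measured binding site.

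Gene counts summed to between 63429271 and 94942464 per library in the KO M0 and IL-4 groups, and 16069 to 16517 genes had at least 1 count. Levels are counts scaled to library depth (CPM). A count of 0 allows up to 3 counts, which is 0.0303 to 0.0423 CPM in these libraries and covers counting error only. Within KO the libraries numbered 5 and 6 resembled each other, as did 7 and 8, at rest and after IL-4. A principal component analysis over 12057 genes put 80% of the variance on an axis that separated IL-4 from M0 and 13% on an axis that separated 5 and 6 from 7 and 8. No label names a batch that follows these numbers, and each pair contributed both an M0 and an IL-4 library.

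Ogt itself (chrX:101640011-101684351) was measured at 34.5, 34.6, 36.9 and 35.8 CPM in KO M0 libraries 5 to 8 and at 34.8, 31.9, 33.6 and 32.8 CPM in the KO IL-4 libraries. WT libraries held 47.3 to 52.4 CPM at rest and 49.2 to 58.2 CPM after IL-4. Every KO library was thus below every WT library, although KO cells still gave Ogt reads. Whether those reads fall in the deleted part cannot be read from gene totals. IL-4 did not change Ogt past the test in KO (log2 fold change -0.09 ± 0.057 (SE), adjusted p = 0.2). It was called lower in 3 of 17 alternatives, with RLE factors, with library totals and without KO IL-4 library 5, down to -0.18. Mgea5 fell by 0.29 ± 0.055 on the log2 scale, from 57.6 to 61.9 CPM at rest to 47 to 49.8 CPM after IL-4.

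The macrophage markers Adgre1 (F4/80), Csf1r (the CSF-1 receptor), Cd68 and Spi1 (PU.1) were high in all 8 libraries, with Csf1r at 863 to 1487 CPM and Cd68 at 610 to 794 CPM, and none of these 4 was called. With the replicate number as a block all 4 were, Csf1r lower (log2 fold change -0.22) and Adgre1, Cd68 and Spi1 higher (0.17, 0.21 and 0.22). Transcripts typical of stromal cells were also abundant. Col1a1, the main chain of type I collagen, stood at 7087 to 9569 CPM in KO M0 and 5401 to 7114 CPM in KO IL-4, and the summed level of the 10 stromal markers was 15000 to 19800 CPM in KO M0 and 11100 to 14700 CPM in KO IL-4. WT libraries held 10500 to 12300 and 7600 to 8190 CPM in the same order. In bulk RNA, fewer cells of a type and less RNA per cell cannot be told apart, and what part the fall of the stromal markers had in the results below was not tested.

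IL-4 changed the level of 7534 of 14693 tested genes in KO (51.3%) at an adjusted p under 0.05 in edgeR's quasi-likelihood test. Of these, 3825 (26%) were higher and 3709 (25.2%) lower. Large changes leaned upward: 200 genes rose and 126 fell at least 4-fold, and 84 rose and 18 fell at least 10-fold. At the 2-fold mark 540 genes (3.68%) were higher and 749 (5.1%) lower. The median log2 fold change over all genes was -0.02. The near-equal split changed with the scaling and with the KO libraries used. Higher genes were 50.8% of the called genes with TMM factors, 40.9% with RLE factors and 37.7% with library totals alone, where 2880 were higher and 4755 lower. When any 1 KO library was left out, higher genes made up between 42.3% and 43% of the calls. The 4 IL-4 values did not overlap the 4 M0 values for 6881 genes (46.8%), 3702 upward (25.2%) and 3179 downward (21.6%), and 6279 genes were both called and apart. Libraries 5 and 6 alone gave 2690 higher and 3573 lower genes, and libraries 7 and 8 alone gave 2228 and 3080.

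**Figure D1:**
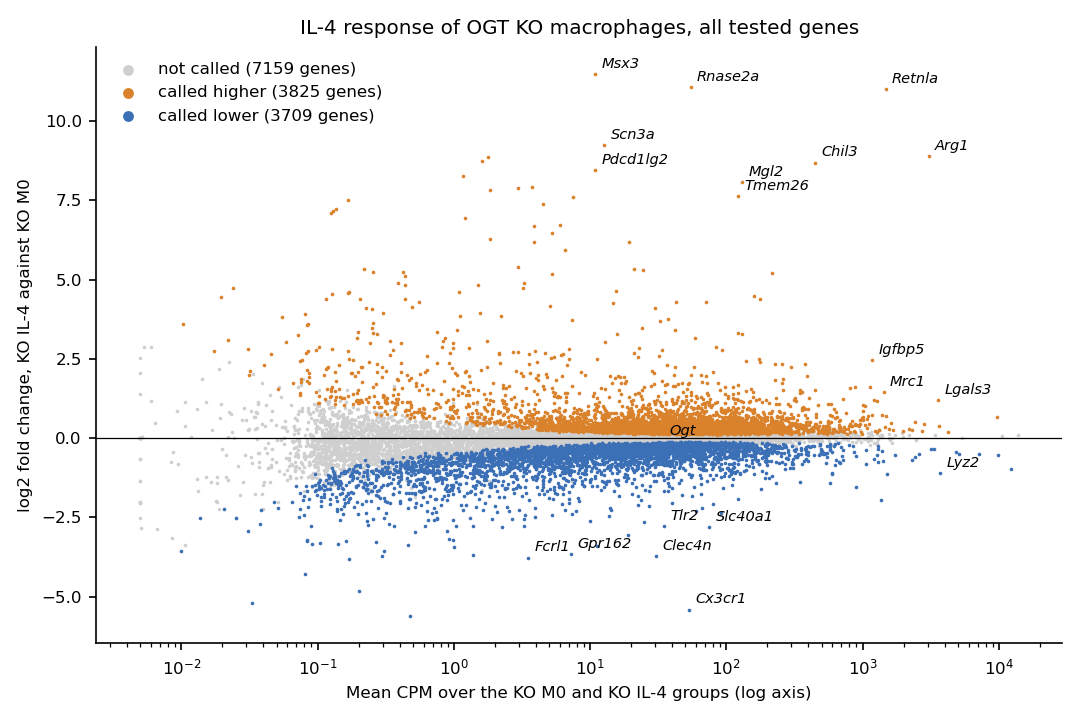
IL-4 response of OGT KO macrophages for all 14693 tested genes. Each point is a gene, with its mean CPM over the KO M0 and IL-4 groups on the log x axis (means under 0.005 CPM are drawn at 0.005) and its log2 fold change on the y axis; orange genes were called higher (3825), blue genes lower (3709). Retnla, Rnase2a and Msx3 lie above 11 and Cx3cr1 below -5 on the y axis, while Ogt lies near 0.

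The genes best known as marks of alternative activation rose steeply, most of them from very low levels. Arg1, which splits arginine into ornithine and urea (chr10:24915207-24927470), was at 12, 8.54, 16.1 and 14.8 CPM in KO M0 libraries 5 to 8 and at 5763, 5877, 5770 and 7044 CPM after IL-4. Its share of all gene counts went from 0.00142% to 0.635%, and its log2 fold change was 8.90 ± 0.27 (adjusted p = 2.2e-19), a 475-fold ratio of mean CPM. Libraries 5, 6 and 7 were close to each other after IL-4, and library 8 was higher.

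Retnla, the secreted resistin-like protein (chr16:48842609-48844461), went from 3.37, 0, 1.75 and 0.516 CPM to 4244, 3962, 1946 and 1646 CPM. Libraries 5 and 6 reached more than libraries 7 and 8, and all 4 were far above rest (log2 fold change 11.02 ± 0.92, adjusted p = 2.25e-10). Chil3, the chitinase-like protein Ym1 (chr3:106147554-106167564), moved from 2.13, 1.91, 3.13 and 1.52 CPM to 957, 946, 847 and 813 CPM, a log2 fold change of 8.69 ± 0.25. Its near-identical neighbour Chil4 also rose, and because reads that map to several places were not counted, the division of reads between such copies is uncertain. The same holds for Rnase2a, a member of the eosinophil-associated ribonuclease family, which went from 0 to 0.151 CPM at rest to 62.4 to 157 CPM.

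Mrc1, the mannose receptor (chr2:14229414-14332023), was already high at rest, at 924, 908, 624 and 599 CPM. It reached 2281, 2206, 1995 and 1883 CPM, a log2 fold change of 1.45 ± 0.12. Lgals3 (galectin-3), a lectin made by macrophages, took 0.239% of gene counts at rest and 0.522% after IL-4. Igfbp5, which binds insulin-like growth factors, went from 292 to 440 CPM to 1634 to 2348 CPM. Of the 6 genes with the highest CPM after IL-4 among those changed at least 2-fold, only Lyz2, the macrophage lysozyme, fell, from 0.558% to 0.245% of gene counts.

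**Figure D2:**
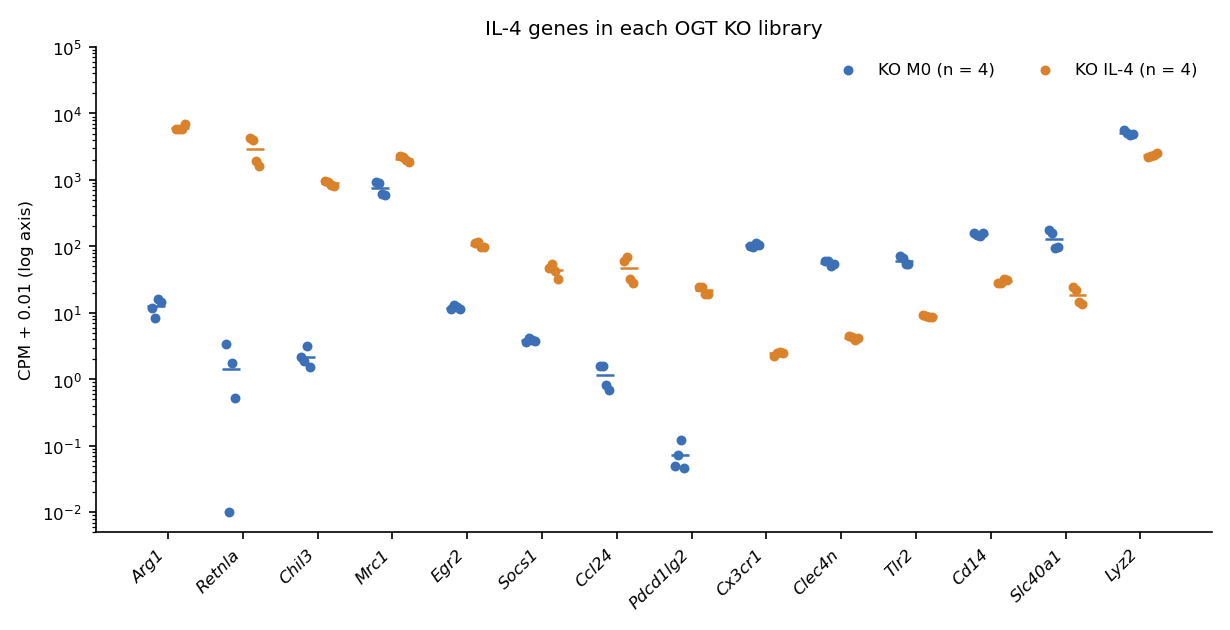
CPM of 14 genes in each KO library, with 0.01 added so that a value of 0 can be drawn on the log y axis; blue points are the 4 M0 libraries, orange points the 4 IL-4 libraries, in the order 5 to 8, and bars are group means. The 2 groups do not overlap for any of the 14 genes. After IL-4 libraries 5 and 6 sit above 7 and 8 for all but Arg1, Cx3cr1, Cd14 and Lyz2, most widely for Retnla, Ccl24 and Slc40a1.

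Several of the steepest rises were of genes better known from other cell types. Msx3, a homeobox transcription factor gene, had 2 counts over the 4 KO M0 libraries together and 7342 over the 4 IL-4 libraries, which lay at 25.4, 25.6, 17.3 and 18.5 CPM. The ratio of the depth-adjusted counts was 3770, with an exact 95% interval of 1040 to 31200 that covers counting error only. Scn3a, a voltage-gated sodium channel subunit, went from 0.0141 to 0.0909 CPM to 33.5, 32.4, 19.6 and 16.2 CPM. Kcnd3, a potassium channel subunit, reached 4.56 to 7.35 CPM from at most 0.0412 CPM. Cldn11, a tight junction claudin, reached 6.86 to 8.18 CPM from at most 0.0412 CPM. Ddx4, an RNA helicase of germ cells, rose to 5.5 to 8.99 CPM from at most 0.155 CPM. In all, 30 genes called higher had no more than 3 counts in any KO M0 library, and 5 of them reached a mean of 1 CPM.

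Cell-surface and fusion genes completed the group of largest rises. Pdcd1lg2 (PD-L2, a ligand of the inhibitory receptor PD-1; chr19:29410919-29472927) went from 0.0369 to 0.113 CPM to 24.6, 24.5, 19.1 and 19.2 CPM, a log2 fold change of 8.45 ± 0.18. Mgl2, a galactose-type lectin, went from 0.835 to 1.16 CPM to 329, 331, 195 and 190 CPM. Tmem26, a transmembrane protein with 2 motif matches in its promoter, reached 218 to 266 CPM from 0.814 to 1.66 CPM. Il13ra2, the decoy receptor for IL-13, reached 12.8 to 16.1 CPM from at most 0.121 CPM. Cdh1 (E-cadherin) reached 8.19 to 9.55 CPM from at most 0.0983 CPM.

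Cx3cr1, the fractalkine receptor (chr9:120048683-120068296), dropped from 102, 97.6, 112 and 105 CPM to 2.24, 2.49, 2.58 and 2.52 CPM, a log2 fold change of -5.41 ± 0.2 (adjusted p = 1.6e-17). Clec4n (Dectin-2, a receptor for fungal mannans) dropped from 50.9 to 60.2 CPM to 3.97 to 4.5 CPM. P2ry13, a receptor for ADP, went from 18.3 to 22.8 CPM to 1.65 to 2.19 CPM. Gpr34, a lysophospholipid receptor, went from 32 to 34.5 CPM to 2.88, 3.38, 5.3 and 4.82 CPM.

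Slc40a1 (ferroportin, the iron exporter) stood at 175, 159, 94.5 and 96.8 CPM at rest and at 24.1, 22.2, 14.5 and 13.7 CPM after IL-4. Libraries 7 and 8 were lower than 5 and 6 in both states, and the log2 fold change was -2.81 ± 0.21. Fcrl1, Gpr162, Ms4a6b, Ackr4, Gpr84, Arl5c, Megf6, Clec4e and Icosl complete the 15 largest falls, with log2 fold changes from -3.77 (Fcrl1) to -2.44 (Clec4e and Icosl). Clec4e (Mincle) senses mycobacterial glycolipids, Ackr4 is a scavenging chemokine receptor, and Icosl is a costimulatory ligand of T cells.

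The receptor and STAT6 list itself barely moved. Of 18 genes, 4 were called higher and 2 lower, and the median log2 fold change was -0.01 beside -0.02 over all genes. Over all tested genes 26% were called higher and 25.2% lower. Il4ra stood at 173 to 215 CPM at rest and 171 to 192 CPM after IL-4 (log2 fold change -0.07 ± 0.11, adjusted p = 0.63). Stat6 stood at 162 to 183 and 163 to 177 CPM (-0.01 ± 0.07, adjusted p = 0.88). The 4 higher genes were Il13ra2, the kinase Jak2 (log2 fold change 0.83), the adaptor Irs2 (0.52) and Dok2, an adaptor that dampens kinase signalling, which went from 64.6, 61.9, 40.7 and 41.4 CPM to 332, 348, 230 and 271 CPM. The 2 lower genes were Il13ra1 (-0.97), the second chain of the type 2 receptor, and the phosphatase Ptpn6 (-0.43). The count of lower genes in this list was 5 with RLE factors, with library totals or with the replicate number as a block. It was 5 without KO M0 library 7 or 8 or KO IL-4 library 5, and 4 without KO IL-4 library 6 or 7.

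Inhibitors of STAT signalling were among the clear rises. Of 12 genes in that list, 7 were called higher and 1 lower (Pias3, log2 fold change -0.29), with a median of 0.25. The lower count was 2 when any 1 KO library was left out and with other scalings or the replicate block. Cish, a SOCS-family inhibitor, went from 2.93, 3.21, 3.6 and 3.5 CPM to 59.4, 62.3, 58.7 and 47.9 CPM, a log2 fold change of 4.11 ± 0.11. Socs1, an inhibitor of Janus kinases (chr16:10783808-10785536), went from 3.69, 4.23, 3.97 and 3.75 CPM to 47.5, 53.6, 42.5 and 31.9 CPM (3.49 ± 0.2). Socs2 rose by 1.02 ± 0.08 and the phosphatase gene Ptpn2 by 0.70 ± 0.059 on the log2 scale. Both groups of 4 were apart for all 4 of these genes.

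Transcription factors linked to the IL-4 response mostly rose. Of 26, 18 were called higher, 12 of them at least 2-fold, and 5 lower, with a median of 0.67. Egr2, an early growth response factor that acts downstream of STAT6 (chr10:67534469-67542188), was at 11.5, 13.1, 12.1 and 11.3 CPM and then at 113, 118, 99.3 and 97.2 CPM (3.15 ± 0.082, adjusted p = 1.15e-20). Irf4, a factor needed for alternative activation, went from 2.28, 1.74, 0.692 and 0.934 CPM to 37.9, 34.3, 21.1 and 19.3 CPM. Batf3, an AP-1 family factor, went from 0.983 to 1.4 CPM to 35.6, 37.3, 22.2 and 24.5 CPM. For Irf4 and Batf3 libraries 5 and 6 were again the higher ones after IL-4. The 5 lower genes were Egr3, Klf2, Ppard, Bhlhe41 and Maf, with log2 fold changes from -1.10 to -0.25.

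Among the effectors of alternative activation, 20 of 26 tested genes were called higher and 5 lower, with 18 higher at least 2-fold and a median of 2.18. Slc7a2, a transporter of cationic amino acids that brings in arginine, went from 15.2, 13.5, 14.1 and 12.7 CPM to 306, 296, 322 and 310 CPM, with all 4 libraries alike. Atp6v0d2, a subunit of the lysosomal proton pump, rose by 1.87 ± 0.1 on the log2 scale. The 5 lower genes were F13a1, Il1rn, Thbs1, Pdgfc and Pdgfa, which encode a clotting factor subunit, the IL-1 receptor antagonist, thrombospondin-1 and 2 platelet-derived growth factors. In the list of arginine and polyamine enzymes 9 of 15 tested genes rose and 3 fell. Azin2, which inhibits antizyme, rose by 1.74 ± 0.078, and Smox (spermine oxidase) fell by 0.81 ± 0.063 on the log2 scale.

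Of 22 lectins and uptake receptors 11 were higher and 8 lower, with a median of 0.22, beside 26% and 25.2% over all tested genes. Clec7a (Dectin-1, the β-glucan receptor) went from 73.2 to 78.1 CPM to 386, 356, 386 and 390 CPM. The lectin genes Clec4n, Clec4d and Clec4e fell by 3.73, 2.07 and 2.44 on the log2 scale. Cd36, a scavenger and fatty acid receptor, rose by 1.28 ± 0.1. Cell fusion genes were higher for 8 of 14 and lower for 2 (Tyrobp and Dysf). Of these Dcstamp reached 1.96, 1.69, 0.83 and 0.951 CPM from at most 0.209 CPM, and Adam9, a membrane protease, rose by 0.57 ± 0.056.

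Several CC chemokines rose more than 4-fold. Ccl2, a monocyte attractant, went from 14.7 to 18.2 CPM to 358, 360, 312 and 313 CPM, and Ccl7 from 9.26 to 14.9 CPM to 465, 432, 409 and 379 CPM. Ccl12 and Ccl6 rose by 3.69 ± 0.12 and 2.40 ± 0.077 on the log2 scale. Chemokines known as STAT6 targets differed in how much they rose. Ccl24 (eotaxin-2) went from 1.61, 1.58, 0.819 and 0.676 CPM to 59.9, 70.5, 32.3 and 28.6 CPM. Ccl22 went from 0 to 0.101 CPM to 4.31, 3.96, 3.54 and 2.85 CPM, and Ccl17 stayed low, at 0.172 to 0.237 CPM at rest and 0.664, 0.387, 0.681 and 1.22 CPM after IL-4. Over the whole list of 22 chemokines 9 were higher, all at least 2-fold, and 8 lower, 6 of them at least 2-fold, which left a median of -0.11. The lower count was 5 when only the KO M0 and IL-4 groups entered the fit. Over all tested genes 26% were higher and 25.2% lower. Cxcl12, a marker of stromal cells as well, fell by 1.13 ± 0.16.

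Chemokine and chemoattractant receptors fell more often than they rose. Of 14, 7 were lower and 4 higher, with a median of -0.85, beside 25.2% lower and 26% higher over all tested genes. C5ar1, the complement C5a receptor, went from 206 to 288 CPM to 102 to 133 CPM, and Cxcr4 from 82.7 to 102 CPM to 35.4 to 41 CPM. Ccr1 rose by 0.80 ± 0.065. Among 16 costimulatory and checkpoint genes, 4 were higher and 6 lower, beside 26% and 25.2% over all tested genes. Cd40 rose by 1.92 ± 0.1 and Cd86 fell by 1.36 ± 0.11 on the log2 scale. The other 2 higher genes beside Pdcd1lg2 and Cd40 were Cd274 (PD-L1, log2 fold change 1.24) and Cd200r1 (0.81).

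**Figure D3:**
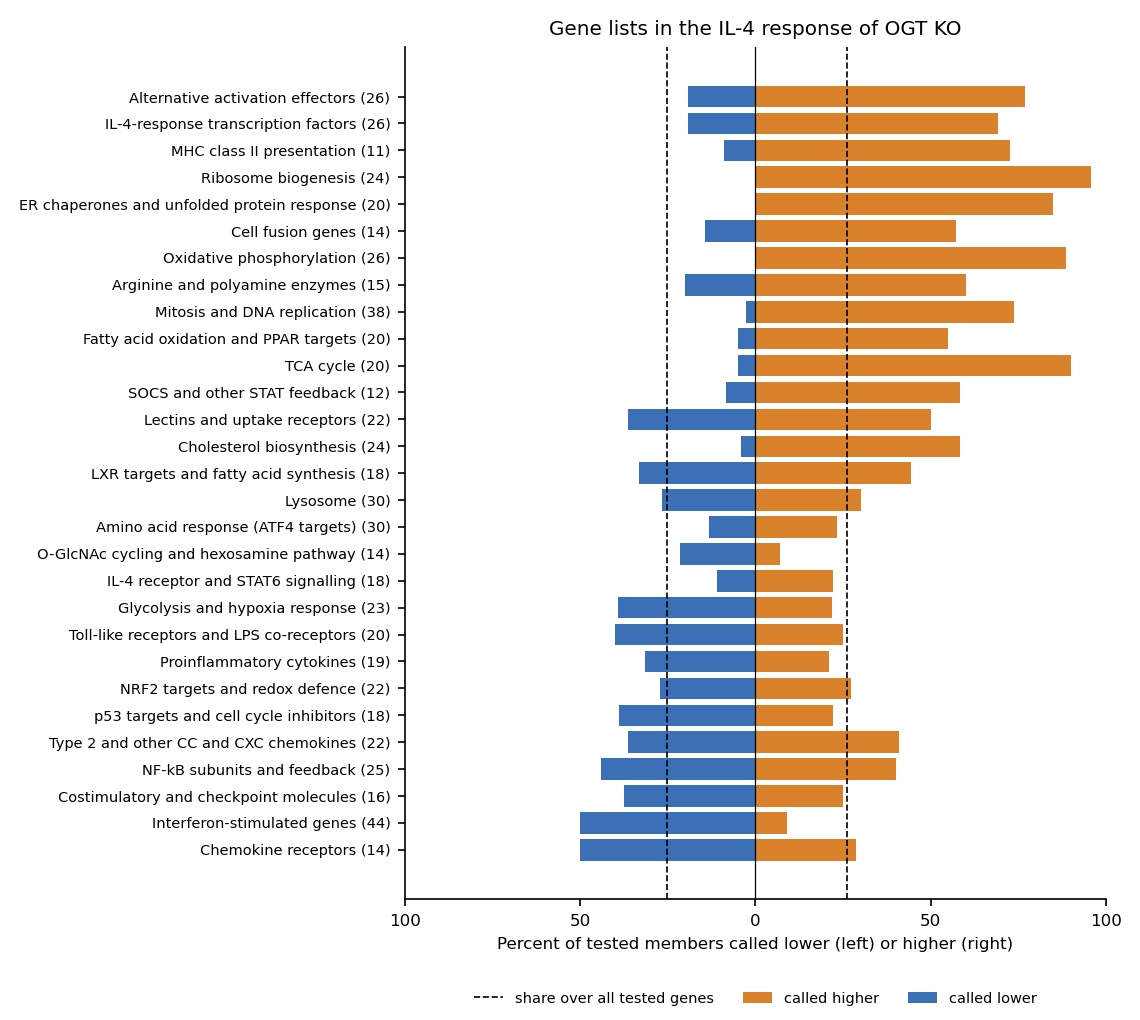
Share of the tested members of each of 29 pathway lists that was called lower (blue, left) or higher (orange, right) in KO after IL-4, in percent; the number tested stands in parentheses, lists are ordered by median log2 fold change, and dashed lines mark the shares over all tested genes (25.2% lower, 26% higher). Ribosome biogenesis, oxidative phosphorylation, the TCA cycle and ER chaperones are almost wholly higher, and interferon-stimulated genes and chemokine receptors are most often lower.

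Genes of mitochondrial energy production rose by small amounts across nearly the whole lists. Of 26 oxidative phosphorylation genes 23 were higher and none lower, with a median of 0.40. Cycs (cytochrome c) went from 130, 126, 137 and 142 CPM to 240, 246, 217 and 250 CPM, a log2 fold change of 0.83 ± 0.063. Atp5b, the β subunit of ATP synthase, and Cyc1 each rose by 0.57 on the log2 scale. Of 20 TCA cycle genes 18 were higher and 1 lower, with a median of 0.28. The lower gene was Irg1, which makes itaconate (log2 fold change -1.71). It was not called with KO libraries 5 and 6 alone, with only the compared groups in the fit, without the 3 shallow LPS libraries, without KO M0 library 5 or 7, or without KO IL-4 library 7 or 8. Pcx (pyruvate carboxylase) went from 10.4 to 14.1 CPM to 25.4 to 33.7 CPM, and Idh3a and Mdh2 rose by 0.60 and 0.54 on the log2 scale. With KO libraries 7 and 8 alone the higher counts were 15 and 10.

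Fatty acid handling rose in part and glycolysis did not move as a list. Among 20 genes of fatty acid oxidation and PPAR targets 11 were higher and 1 lower (Pdk4), with a median of 0.31. Lpl (lipoprotein lipase) went from 371 to 452 CPM to 1306, 1215, 1106 and 1193 CPM, and Fabp4 rose by 1.32 ± 0.086. Of 23 tested glycolysis and hypoxia genes 5 were higher and 9 lower, with a median of -0.04, beside 26% and 25.2% over all tested genes. Pfkp, a platelet-type phosphofructokinase, rose by 0.88 ± 0.068, whereas Hif1a and Bnip3 fell by 0.52 and 0.65 on the log2 scale.

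For cholesterol synthesis 14 of 24 genes were higher, with a median of 0.22, beside 26% higher over all tested genes. That count was 8 with RLE factors or library totals, 6 in DESeq2, 6 with KO libraries 7 and 8 alone and 7 without KO M0 library 7 or 8 or KO IL-4 library 5 or 6. Mvd rose by 0.79 ± 0.1 and Dhcr7 by 0.46 ± 0.089. The cholesterol exporters went apart. Abcg1 rose from 52.7, 59.1, 56.5 and 62.6 CPM to 197, 201, 170 and 172 CPM, and Abca1 fell from 156 to 168 CPM to 51.6, 48.7, 67.6 and 62.5 CPM. Apoe fell by 0.96 ± 0.088 and Pltp by 1.08 ± 0.08 on the log2 scale.

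Some genes for sensing bacteria fell, and others rose. Of 20 Toll-like receptor and co-receptor genes 8 were lower, 5 of them at least 2-fold, and 5 higher, with a median of -0.05. Over all tested genes 25.2% were lower and 26% higher, so the share of higher genes here was near the background. Tlr2, a receptor for bacterial lipopeptides (chr3:83836272-83841824), went from 70.7, 66.2, 53.7 and 55.1 CPM to 9.18, 9.1, 8.7 and 8.63 CPM. Cd14, the co-receptor that hands LPS to TLR4, went from 159, 151, 146 and 160 CPM to 28.3, 28.1, 32.1 and 31.8 CPM. Tlr9 and Tlr13, which sense nucleic acids in endosomes, fell by 2.39 ± 0.2 and 1.01 ± 0.076. The 5 higher genes included Tlr4 itself (log2 fold change 0.89) with Tlr1, Tlr8, Irak1 and Ticam1.

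Inflammatory cytokines were called about as often as genes in general. Of 19 tested, 4 were higher and 6 lower, with a median of -0.08, beside 26% and 25.2% over all tested genes. Tnf went from 6.66, 5.94, 5 and 6 CPM to 2.3 to 3.51 CPM, and Il18 and Ebi3 fell by 1.11 ± 0.15 and 1.47 ± 0.19. Csf1, the macrophage growth factor, rose from 414 to 515 CPM to 795 to 841 CPM. NF-kB subunits and feedback genes were higher for 10 and lower for 11 of 25. Nfkbiz fell by 1.33 ± 0.12, and Zc3h12a, a ribonuclease that degrades cytokine transcripts, rose by 1.02 ± 0.097.

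Interferon-stimulated genes were lower for 22 of 44 and higher for 4, with a median of -0.39. The 4 higher genes were Usp18, Irf1, Bst2 and Zbp1, and without KO IL-4 library 5 the lower count was 35. That library was the highest IL-4 library for Usp18, which went from 3.33 to 3.75 CPM to 16, 8.38, 6.43 and 7.3 CPM. Gbp2, a guanylate-binding protein of the interferon response, went from 27.4, 25.8, 20.1 and 19.2 CPM to 11.5, 9.41, 6.63 and 6.65 CPM, and Irgm1 fell by 0.80 ± 0.083. Genes of MHC class II presentation were higher for 8 of 11 and lower for 1 (H2-Ob). Cd74, the invariant chain, went from 9.32, 8.01, 4.22 and 4.24 CPM to 54.4, 50.3, 27.1 and 22.8 CPM. Ciita, its transcriptional coactivator, went from 0.0282 to 0.343 CPM to 2.26, 1.92, 1.19 and 0.857 CPM, and H2-DMa rose by 1.55 ± 0.11.

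Growth-related lists rose broadly and by little. All but 1 of 24 ribosome biogenesis genes were higher (23 higher, 0 lower), with a median of 0.54, and Rrs1 and Dkc1 rose by 0.94 ± 0.076 and 0.88 ± 0.076. Among genes of mitosis and DNA replication, 28 of 38 were higher and 1 lower (Ccnd2), with a median of 0.36 and no change of 2-fold. Replication genes led it: Pcna, the sliding clamp, went from 260, 266, 229 and 239 CPM to 523, 508, 406 and 469 CPM, and Mcm5 and Mcm2 of the replicative helicase rose by 0.82 and 0.75. DESeq2 called 17 of them higher. Among 18 p53 targets and cell cycle inhibitors 4 were higher and 7 lower, beside 26% and 25.2% over all tested genes. Sesn1 fell by 1.14 ± 0.083 and Cdkn1b (p27) by 0.63 ± 0.065.

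Protein folding in the endoplasmic reticulum rose with them. Of 20 chaperone and unfolded protein response genes 17 were higher and none lower, with a median of 0.50. Pdia4, a disulfide isomerase, went from 165, 162, 157 and 159 CPM to 659, 655, 585 and 609 CPM, a log2 fold change of 1.96 ± 0.05, and Sdf2l1 and Creld2 rose by 1.43 and 1.08. Lists with shares near or below the background (26% higher, 25.2% lower) included the receptor and STAT6 list and the inflammatory cytokines given above. Others were the lysosome (9 higher and 8 lower of 30), NRF2 targets (6 and 6 of 22), ATF4 targets (7 and 4 of 30) and the hexosamine pathway (1 and 3 of 14). Several of these counts moved: the ATF4 list had 14 higher genes under the replicate block, 9 lower without KO M0 library 5 and 7 lower without KO IL-4 library 7. With library totals alone the NRF2 list had 10 lower genes and the hexosamine list 6. Within them Ctsl (cathepsin L) rose by 1.21 ± 0.081, Gpx1 rose by 0.74 ± 0.063, Cat (catalase) fell by 0.81 ± 0.1 and Mthfd2 rose by 0.61 ± 0.068.

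Cell type markers moved as follows, beside 26% higher and 25.2% lower over all tested genes. Of 12 macrophage markers 7 were lower, and their summed level went from 8180 to 10100 CPM at rest to 5810 to 6220 CPM. Of 10 stromal markers 8 were lower and 1 higher (Pdgfra, log2 fold change 0.56). Endothelial markers were lower for 4 of 8, for 7 with the replicate number as a block, and for 2 in DESeq2, with only the compared groups in the fit, or without KO M0 library 8 or KO IL-4 library 5 or 6. Cdh5 among them was at 3.46, 4.99, 22.3 and 21.9 CPM at rest and at 1.92, 1.75, 9.01 and 8.74 CPM after IL-4, so that libraries 7 and 8 held more in both states. Its fall was called in 10 of 17 alternatives. Pecam1 went the other way, from 2.91, 3.33, 15.1 and 14.9 CPM to 10.5, 9.99, 20.5 and 21 CPM, and was not called. The replicate block called 1 endothelial gene higher, as did KO libraries 5 and 6 alone and the fits without KO M0 library 7 or 8 or KO IL-4 library 6. Endothelial markers summed to 25.5 to 79.7 CPM in KO M0 and 19.8 to 47.7 CPM in KO IL-4. WT M0 libraries held 16 to 20.7 CPM and WT IL-4 libraries 20.8 to 24.5 CPM. The part of this in the KO and WT differences below was not tested. Osteoclast genes were higher for 4 of 8: Acp5, Ocstamp, Dcstamp and Itgb3. Neutrophil genes were lower for 4 of 11 tested, with a summed level of 49.7 to 63.2 CPM at rest and 42.8 to 52.6 CPM after IL-4.

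T and NK cell genes summed to 6.19 to 19.3 CPM at rest and 1.17 to 4.99 CPM after IL-4, nearly all of it Cd4 and Gzmb, both called lower, with Cd3e and Cd8a at 0 in every library. B cell genes summed to 29 to 36.2 and 22.8 to 24.1 CPM, mostly Ebf1, with Pax5 at 0 in every library. Dendritic cell genes (2 higher, 2 lower of 7 tested) summed to 130 to 151 and 126 to 149 CPM, mast cell genes (0 and 3 of 5) to 12.4 to 18.3 and 7.34 to 10.5 CPM, and eosinophil genes (0 and 0 of 3) to 3 to 3.34 and 2.13 to 3.97 CPM. Erythroid genes summed to 7.04 to 10.1 and 2.55 to 2.91 CPM, mostly Epor, with the 4 globin genes at 0. Megakaryocyte genes (1 higher, 2 lower of 5 tested) summed to 25.6 to 31.4 and 64.5 to 72.3 CPM; the higher gene was Vwf, also on the effector list, which made up most of the sum, and Itga2b and Ppbp were lower. The part of these other cells in the IL-4 response was not tested.

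Set beside WT, where 4535 genes (30.9%) were higher and 4301 (29.3%) lower after IL-4, the KO response was tested as a difference: the KO log2 fold change minus the WT log2 fold change. That difference was called for 167 genes (1.14%), 69 positive (0.47%) and 98 negative (0.667%), and 2079 genes had an unadjusted p under 0.05. The KO response was the smaller in size for 151 of the 167 genes and the larger for 16. Of the 98 negative genes 89 had values above 0 in both genotypes, and of the 69 positive genes 52 had values below 0 in both. The median difference over all genes was 0.

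These counts depend on the KO libraries used. With libraries 7 and 8 alone 203 differences were positive and 190 negative, and with libraries 5 and 6 alone 14 and 7. DESeq2 called 31 and 33. Fitting the replicate number as a block gave 497 and 621. In KO the numbers show only the split of 5 and 6 from 7 and 8, and in WT they do not pair all libraries. Leaving out 1 library gave 27 to 148 positive and 33 to 212 negative genes, and most of the libraries moved a count by over 1.5 times: KO M0 7 and 8, KO IL-4 7 and 8, all 4 WT M0 libraries and WT IL-4 libraries 1, 2 and 4.

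**Figure D4:**
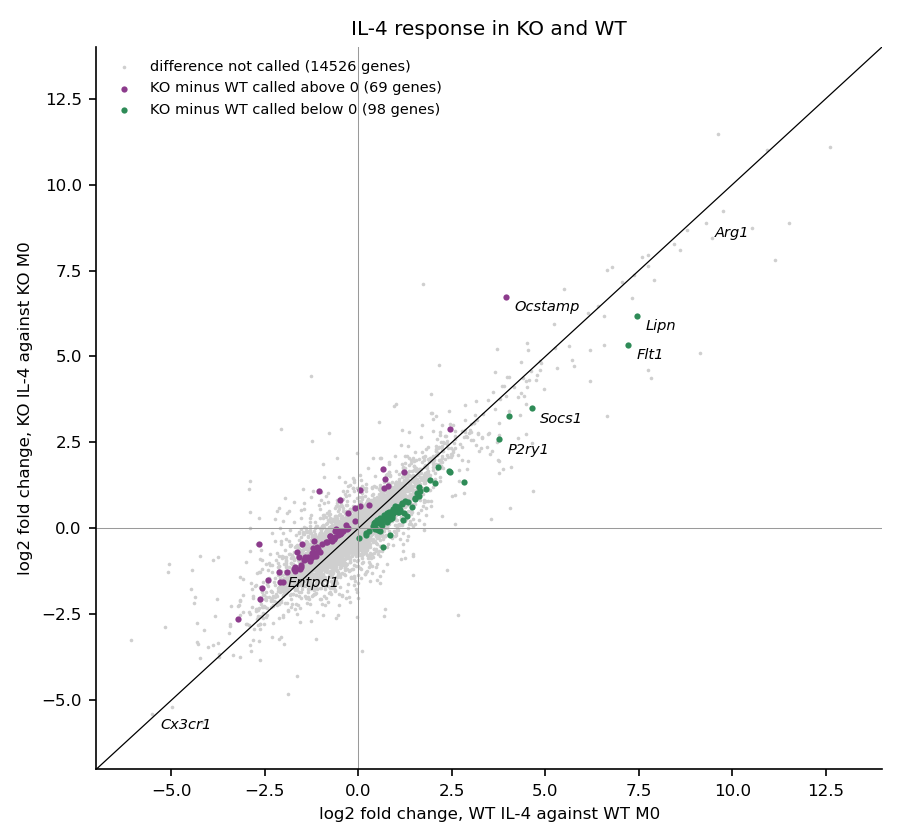
log2 fold change of IL-4 against M0 in WT (x axis) and KO (y axis) for all 14693 tested genes; the line marks equal responses, purple genes have a difference called above 0 (69) and green genes one called below 0 (98). Most green genes lie to the right of 0 and below the line and most purple genes to the left of 0 and above it, that is, with a smaller KO response; Ocstamp is the purple gene far above the line.

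The signature genes did not pass the test of a difference between the genotypes, which does not show that their responses were equal. Arg1 rose by 8.90 in KO and 9.30 in WT on the log2 scale, Chil3 by 8.69 and 8.79, Mrc1 by 1.45 and 1.27, and Egr2 by 3.15 and 3.17. Pdcd1lg2 rose by 8.45 in KO and 9.45 in WT, and Ccl24 by 5.31 and 5.64. After IL-4 Pdcd1lg2 was at 19.1 to 24.6 CPM in KO and 31.4 to 33.6 CPM in WT. Ccl24 was at 28.6 to 70.5 CPM in KO and 99.9 to 136 CPM in WT, and was lower in KO at rest too. Egr2 and Ccl22 also had every KO IL-4 library below every WT IL-4 library. For Arg1, Retnla, Chil3, Mrc1 and Ccl17 the genotypes overlapped after IL-4. Of the 14 genes fixed for naming, Socs1 alone had a called difference, -1.15 ± 0.27 (adjusted p = 0.036). WT Socs1 went from 1.96 to 3.39 CPM to 61.4 to 75.1 CPM, so each KO IL-4 library was below each WT IL-4 library and each KO M0 library above each WT M0 library. The Socs1 call held in 14 of 25 alternatives. Socs2 had a difference of -0.56 and kept its call in 23 of them.

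The largest positive difference was that of Ocstamp, a membrane protein of fusing osteoclasts and giant cells (chr2:165395450-165400394). It went from 0.141, 0.0825, 0.198 and 0.0246 CPM to 13.8, 13.9, 10.2 and 9.41 CPM in KO, and from 0.685, 0.554, 0.651 and 0.461 CPM to 9.63, 8.85, 9.33 and 8.69 CPM in WT. KO libraries were lower at rest, with 38 counts in all 4 together, and overlapped WT after IL-4. The difference was 2.79 ± 0.37 (adjusted p = 0.00013) and was called in all 25 alternatives, where it ranged from 2.48 to 3.13.

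Most other positive differences were falls that were smaller in KO. Serpinb8, a serine protease inhibitor, was alike at rest, at 7.72 to 9.82 CPM in KO and 8.4 to 10.4 CPM in WT. After IL-4 it was at 5.83 to 7.01 CPM in KO and 3.2 to 3.58 CPM in WT, a difference of 1.06 ± 0.12. Ptafr, the receptor for platelet-activating factor, went from 49.5 to 51.1 CPM to 28.5 to 32.7 CPM in KO and from 35.8 to 49.9 CPM to 12.4 to 17.1 CPM in WT (0.95 ± 0.13). Entpd1 (CD39, which breaks down extracellular ATP) went from 148 to 171 CPM to 63 to 67.6 CPM in KO and from 115 to 142 CPM to 28.3 to 29.6 CPM in WT (0.84 ± 0.11).

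For each of these 3 genes the KO and WT libraries did not overlap after IL-4. Serpinb8 and Ptafr were called in all 25 alternatives, and Entpd1 in all but DESeq2. Itgam (CD11b) and Cd33 had differences of 0.83 and 0.82 and lost their calls only with KO libraries 5 and 6 alone. BC021767 had 0.92 and kept its call in 20 of 25 alternatives. Acp5, the tartrate-resistant phosphatase, had a positive difference of 1.08 that held in only 9.

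Negative differences were mostly rises that were smaller in KO. Flt1, a receptor for VEGF (chr5:147561604-147726438), went from 0.656, 0.495, 1.71 and 1.33 CPM to 48.5, 45.8, 36.1 and 32.7 CPM in KO and from 0.3 to 0.517 CPM to 54 to 65.3 CPM in WT, a difference of -1.87 ± 0.36. It ranged from -2.69 to -0.86 over the alternatives and lost its call with KO libraries 5 and 6 alone and in DESeq2. P2ry1, a receptor for ADP, went from 7.96 to 10.2 CPM to 50.8 to 61.8 CPM in KO and from 2.79 to 3.79 CPM to 43.9 to 47.4 CPM in WT (-1.17 ± 0.15). Its KO level was thus higher in both states while its relative rise was smaller. Abcg1 rose by 1.68 in KO and 2.42 in WT, from a higher level at rest in KO, and its difference of -0.74 was called in all 25 alternatives.

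Cdca7, a gene linked to DNA replication, went from 13.3 to 14.1 CPM to 14.7 to 17.8 CPM in KO and from 10.4 to 12.5 CPM to 24.3 to 27.5 CPM in WT (-0.95 ± 0.12). Its small rise in KO was itself called in 6 of 17 alternatives, whereas the difference was called in all alternatives but DESeq2. Shmt1, an enzyme of folate metabolism, rose by 0.64 in KO and 1.45 in WT, and its difference of -0.81 was lost in DESeq2 and with KO libraries 5 and 6 alone. Lipn, a lipase (-1.26), kept its call in 15 alternatives, Cyp4f18 (-1.21) in 8 and Penk (-0.94) in 6.

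**Figure D5:**
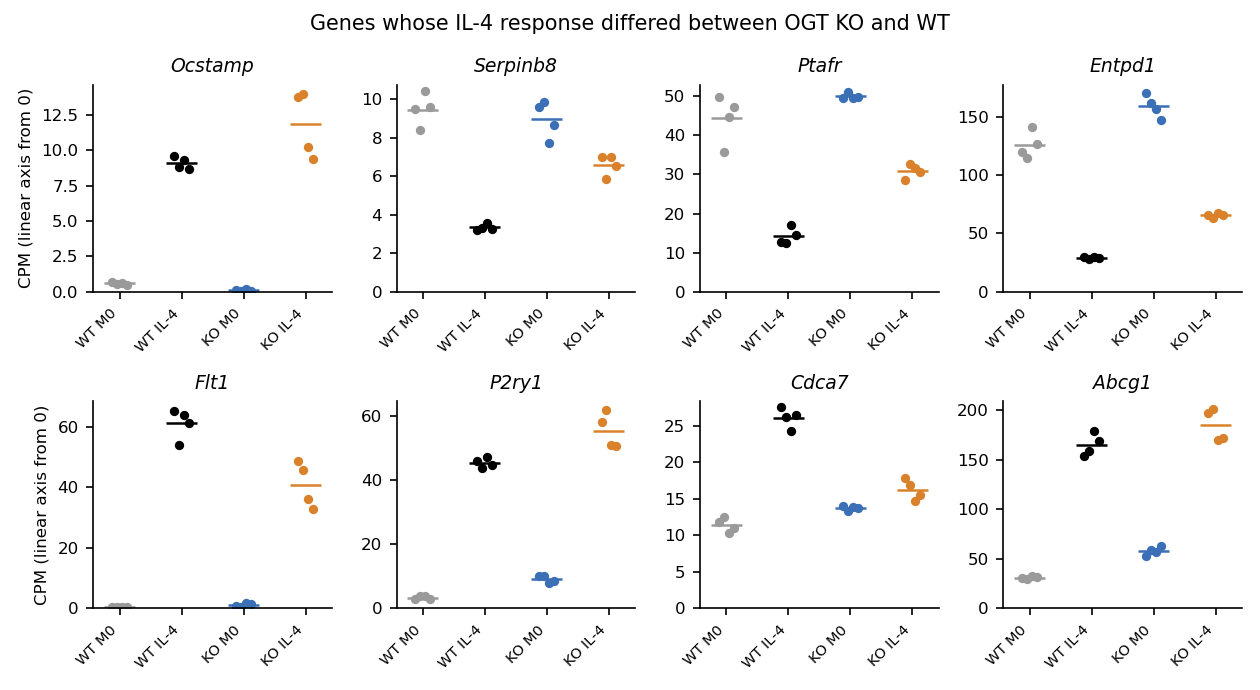
CPM of 8 genes with a called difference in each of the 4 WT M0, WT IL-4, KO M0 and KO IL-4 libraries, on linear axes that start at 0; points are libraries and bars group means. After IL-4 Serpinb8, Ptafr and Entpd1 are higher in KO than in WT and Flt1 and Cdca7 lower, and Ocstamp, P2ry1 and Abcg1 differ at rest.

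Of the gene lists, ribosome biogenesis held the most called differences. All 5 were negative: Dkc1 (-0.63), Nolc1 (-0.45), Gnl3, Nop2 and Nop56, and the list's median response was 0.54 in KO beside 0.81 in WT. Dkc1 and Nolc1 lost their calls only with KO libraries 5 and 6 alone. The list of oxidative phosphorylation had medians of 0.40 in KO and 0.60 in WT with 2 negative differences, and the mitosis and replication list 0.36 and 0.50 with 3. In the interferon-stimulated list the medians were -0.39 and -0.78 and no difference was called. The alternative activation effectors had medians of 2.18 and 2.03 with 2 negative differences, those of Flt1 and Ch25h.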

How the data were processed

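RNA from bone marrow-derived macrophages was sequenced in 24 libraries, 4 in each of 6 groups. The authors deposited raw read counts per gene, 24421 genes a library, made with TopHat2 2.1.0 and HTSeq 0.9.1 on mm10 (GRCm38), per the submitters' processing notes. The sources used here name no annotation, library kit or strand setting, so overlapping and antisense genes cannot be told apart. Reads that map to several places were 3.598% to 3.836% of the lines in the KO M0 and IL-4 files and were not counted to genes; the 5 summary lines were left out.

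Counts were tested with edgeR 4.0.16 (R 4.3.3, quasi-likelihood, TMM factors, genes kept by filterByExpr, 18 residual degrees of freedom), with 1 coefficient for each group. P-values were adjusted over all 14693 genes kept by the Benjamini-Hochberg method, and a gene was called at an adjusted p under 0.05. CPM uses TMM-scaled totals (per 1e6). ± is the standard error of a log2 fold change, taken from the fold change and its F statistic. In counts simulated for IL-4 against M0 in KO over 14324 genes, the test recovered 83% of 100 genes changed 1.5-fold. It recovered 96% of 50 changed 2-fold and 100% of 50 changed 4-fold, with 11 false calls among 192. Only these genes were changed in the simulation, whereas 51.3% of the tested genes were called in the data. Whether the simulated rates hold with so many called genes was not tested. The LPS groups include 3 libraries of 172771 to 209368 counts.

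The members and gene lists were chosen with earlier results of these data known. Named genes are 14 fixed ones, the 15 largest rises and falls (at least 5 CPM, groups apart), the 8 largest differences from WT in each direction, up to 4 genes a list by adjusted p, and the 6 genes with the highest CPM after IL-4 among those changed at least 2-fold. Chil4 and the genes that make up small list counts were named after their values were seen. Single genes of some lists are not reported here.

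Same-numbered KO M0 and IL-4 libraries deviated together (correlations 0.62, 0.47, 0.58 and 0.55). Unlike-numbered libraries within 5 and 6 (0.62 and 0.49) and within 7 and 8 (0.47 and 0.56) did so as much. The values thus show the split of 5 and 6 from 7 and 8, and not a pairing by single number. In WT the same-numbered correlations were 0.12, 0.47, -0.03 and 0.22. Alternatives were RLE or no scaling factors, DESeq2 1.42.0, no filter, fewer groups, the block, KO pairs alone and leaving out each library.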

Additional observations from a re-analysis of the deposited data

Results flagged for a closer look

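Among 370 groups of 4 libraries, over 185 named genes, 17 held a library far from the other 3 by Dixon's criterion at the 95% level. Chance gives about 5% of groups. KO IL-4 library 8 was the high one for Arg1 (7040 CPM, others 5760 to 5880), Lgals3 (5670, others 4770 to 4820), Smox (27, others 23.8 to 24) and Arl5c (1.81, others 0.941 to 1.06), and the low one for Tnf (2.3, others up to 3.51). KO IL-4 library 5 was high for Il18 (2.73 CPM, others 1.88 to 2.01) and Gbp7 (5.92, others 4.13 to 4.25), and library 6 was low for Clec7a (356, others 386 to 390). At rest, KO library 5 was high for Scn3a (0.0909 CPM, others 0.0141 to 0.0246) and Ccr1 (28, others 25.5 to 25.8). It was also flagged for Msx3 (0.0202 CPM, others 0), but that value is 2 counts. It lies under the floor of 3 counts and cannot be told from 0. KO M0 library 6 was low for Gpr34 (32 CPM, others 34.4 to 34.5) and high for Ptafr (51.1, others 49.5 to 49.7). KO M0 library 7 was low for Ndufb8 (96.5 CPM, others 104 to 105) and Sqstm1 (541, others 583 to 586) and high for Cd209a (0.0565, others 0.0202 to 0.0246). KO M0 library 8 was high for Rrs1 (43.2 CPM, others 38.1 to 38.6).

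The IL-4 response of KO minus that of WT passed the test for 26 named genes. The positive log2 differences were 2.79 for Ocstamp, 1.08 for Acp5, 1.06 for Serpinb8, 0.95 for Ptafr, 0.92 for BC021767, 0.84 for Entpd1, 0.83 for Itgam, 0.82 for Cd33, 0.63 for Cxcr4, 0.57 for Ms4a6b, 0.45 for Pltp, 0.42 for Tnfaip2 and 0.41 for Lyz2. The negative ones were -1.87 for Flt1, -1.26 for Lipn, -1.21 for Cyp4f18, -1.17 for P2ry1, -1.15 for Socs1, -0.95 for Cdca7, -0.94 for Penk, -0.81 for Shmt1, -0.74 for Abcg1, -0.63 for Dkc1, -0.56 for Socs2, -0.48 for Psat1 and -0.45 for Nolc1.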

How the results depend on the processing

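The count of genes called in KO was 3825 higher and 3709 lower. DESeq2 gave 2152 and 2722, and KO libraries 7 and 8 alone gave 2228 and 3080. Leaving out 1 KO library gave 2904 to 3175 higher and 3916 to 4247 lower genes. No call shared with an alternative changed sign. The replicate block gave 4342 higher and 4378 lower. The difference between KO and WT was called for 69 positive and 98 negative genes, and for 497 and 621 under the replicate block. DESeq2 gave 31 and 33, the fit of the compared groups alone 135 and 165, the fit without the 3 shallow libraries 108 and 151, KO libraries 7 and 8 alone 203 and 190, and KO libraries 5 and 6 alone 14 and 7. Leaving out 1 library gave 27 to 148 positive and 33 to 212 negative genes. The cause of these shifts was not tested. Depth limits genes near 3 counts a library.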
